A study of Homo sapiens with 24 samples.

Results

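SG21 is a TMEM97 knockout line of HGC27, a long-used human cell line from a gastric carcinoma, and SGCTRL is the HGC27 line that carries the control guide. Here SG21 was compared with SGCTRL after 3 days in LPDS medium, in 6 of the 24 RNA-seq libraries of the study: SG21 replicates 1 to 3 and SGCTRL replicates 1 to 3, all those labelled with that genotype and that serum. LPDS, a label that usually stands for lipoprotein-deficient serum, replaced fetal bovine serum (FBS) in high-glucose DMEM for both lines. The other libraries are SG21 and SGCTRL in FBS, and a second knockout line, SG12, and unedited parental cells, each in LPDS and in FBS, with 3 libraries in each of the 8 groups. The replicates are labelled as independent, but the labels do not say which step was repeated, so p-values measure the spread between these libraries. Each knockout genotype is 1 line, the target sites of the guides are not given in the sources used here, and a difference between lines cannot be told apart from an effect of the edit.

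The counts need one reading rule before any gene can be named. The kit keeps strand, and in the deposited tables an entry named for a gene mostly holds reads from the other strand: between 94.3% and 94.6% of uniquely aligned reads fell on no entry in any of the 24 libraries. A protein-coding gene was therefore read through the entry that overlaps its exons on the opposite strand, and is called a source gene. Of 12822 entries tested, 2755 gave a source gene above the background level of 5.73 CPM (counts scaled to the size of each library, with TMM), the 90th percentile of protein-coding entries that face no gene on the opposite strand. Most genes have no such entry and were not measured. Here the 6 libraries held between 2554457 and 5543678 reads on entries. Because each entry covers only a part of its source gene, CPM values compare libraries and not genes.

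One library stood apart. Reads that overlapped entries but could not be given to 1 of them (ambiguous reads) were taken as a share of all reads that overlapped an entry. This share was 2.71% in SG21 replicate 1, 2.15% and 2.18% in SG21 replicates 2 and 3 and 2.11% to 2.24% in the SGCTRL libraries. Counts of SG21 replicate 1 differed from those of replicates 2 and 3 with a chi-square of 11.0 and 9.36 per degree of freedom, against 3.35 between replicates 2 and 3. Replicates 2 and 3 and the 3 SGCTRL libraries form a set with the same low share, so each result below that depends on replicate 1 is also given without it. In FBS the split runs with the lines: all SGCTRL libraries have the low share and all SG21 libraries the high one. The medium comparison cannot be told apart from it there. All parental and SG12 libraries, in both media, also have the high share. Values of SG12 against SGCTRL, and of SGCTRL against parental cells, therefore cannot be told apart from the split. Values of SG21 in LPDS against parental cells or SG12 share that limit in part, since SG21 replicates 2 and 3 have the low share.

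TMEM97, also known as the sigma-2 receptor, is a membrane protein of the endoplasmic reticulum and lysosome that binds sterols and the cholesterol exporter NPC1. Cells deprived of lipoproteins activate SREBP2, a transcription factor held in the endoplasmic reticulum by cholesterol, which raises the enzymes of the mevalonate pathway and the receptors for lipoprotein uptake. TMEM97 itself belongs to the genes that SREBP2 raises. NPC1 moves the cholesterol released from lipoproteins out of the lysosome, so lysosomal, uptake and synthesis genes act in 1 circuit.

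In LPDS, 703 entries were higher and 697 lower in SG21 than in SGCTRL at an adjusted p under 0.05, which is 10.9% of those tested. Among source genes 314 rose and 309 fell, or 11.4% and 11.2% of 2755, with a median log2 fold change of 0.02. Without SG21 replicate 1, which leaves only libraries of the low-share set, 587 entries were higher and 652 lower, and 260 source genes rose and 294 fell. The changes spread over many functions. The DNA replication list was the one with most of its measured members higher, while genes of the lysosome, sterol uptake, ribosome, mesenchymal state and immediate early response were among those lower.

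**Figure D1:**
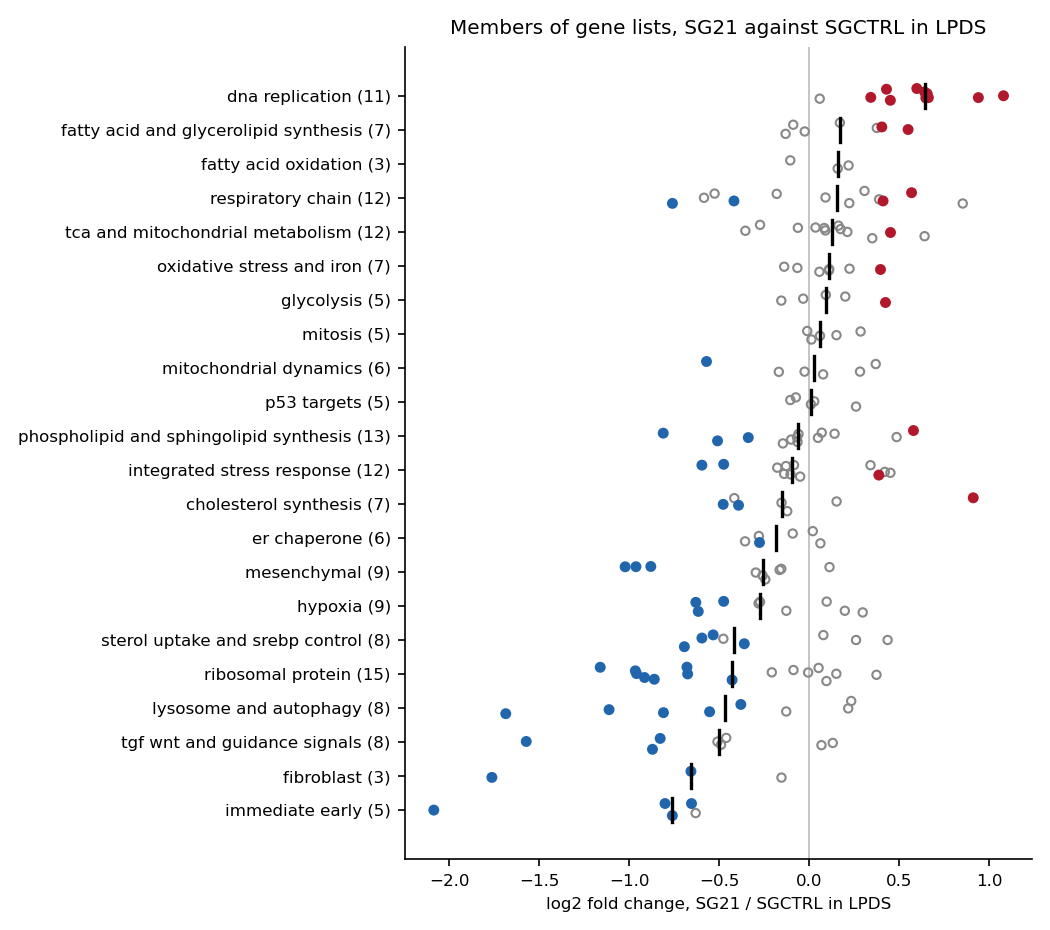
Log2 fold change between SG21 and SGCTRL in LPDS for every measured member of each gene list with at least 3 measured members (number in brackets); filled points passed an adjusted p of 0.05 (red higher, blue lower), open points did not, and black bars are medians. The DNA replication list lies to the right with a median of 0.64, and the immediate early list lies to the left with a median of -0.76.

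TMEM97 (ENSG00000109084, chr17:28319095-28328685, plus strand, GRCh38) and IFT20 (ENSG00000109083, chr17:28328325-28335489, minus strand), a subunit of the transport machinery of cilia, meet tail to tail and share 361 bases, so each is read through the entry of the other. TMEM97 stood at 119.5, 121 and 127 CPM in SG21 and at 163, 172 and 149 CPM in SGCTRL. All 3 knockout libraries lay below all 3 controls, and the level fell by 0.39 on the log2 scale (standard error 0.12, adjusted p = 0.024). The call was lost without SG21 replicate 1, SG21 replicate 2, SGCTRL replicate 1 or SGCTRL replicate 2, with values from -0.38 to -0.36 and adjusted p of 0.054, 0.082, 0.082 and 0.11. The 361 bases lie at the 3′ end of the gene and may lie outside the edited part, so this level does not check the knockout. In SG12 the same stretch differed from SGCTRL by 0.26 (adjusted p = 0.16), and SG21 lay below SG12 by a log2 difference of -0.66 (standard error 0.12, adjusted p = 4.5e-05). IFT20 read 69.1, 61.1 and 64.4 CPM in SG21 against 86.2, 104 and 82.2 CPM in SGCTRL and fell by 0.48 (standard error 0.14, adjusted p = 0.020), a call lost without SG21 replicate 2, SG21 replicate 3 or SGCTRL replicate 2 (adjusted p = 0.093, 0.050 and 0.14). Against parental cells neither passed: TMEM97 was at -0.31 (adjusted p = 0.091) and IFT20 at -0.26 (adjusted p = 0.28). EBP, PGRMC1 and INSIG1 could not be read in this way.

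Genes of sterol synthesis did not move one way against SGCTRL. Of 7 measured members of the cholesterol synthesis list, 1 rose, 2 fell and 4 did not pass, with a median of -0.15. Over all source genes 11.4% rose and 11.2% fell. Against parental cells 2 of the 7 were higher and none lower, with a median of 0.14, beside 13.5% and 8.53% of all source genes. ACAT2, the cytosolic acetoacetyl-CoA thiolase at the first step of the mevalonate pathway (chr6:159760328-159779055), was at 851, 711 and 636 CPM in SG21 and at 399.6, 395 and 374 CPM in SGCTRL. Every SG21 library was above every control, the rise was 0.91 (standard error 0.10, adjusted p = 1.7e-09), and against parental cells it was 0.86. HMGCS1, the enzyme that takes the product of ACAT2 to HMG-CoA, went the other way. It read 2502, 2920 and 2836 CPM in SG21 and 3932, 3959 and 3607 CPM in SGCTRL, and fell by 0.48 (standard error 0.10, adjusted p = 4.2e-04). The direction of HMGCS1 depends on the control used: against parental cells SG21 was 0.27 higher with an adjusted p of 0.064. The control line cannot be told apart here from the ambiguous share, low in SGCTRL and high in parental cells. TMEM97 is the other member that fell.

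IDI1, FDFT1 and LSS were among those that did not pass. IDI1, which isomerises isopentenyl diphosphate, shows the split within SG21: 483 CPM in replicate 1 against 243 and 223 CPM in replicates 2 and 3, with 405, 423 and 437 CPM in SGCTRL. Its log2 difference was -0.42 (standard error 0.22, adjusted p = 0.28), and without SG21 replicate 1 IDI1 fell by 0.86 (adjusted p = 1.8e-06). FDFT1, the squalene synthase, and LSS, the lanosterol synthase, differed by -0.15 and 0.15. SREBF2, which encodes SREBP2, read 578, 821 and 716 CPM in SG21 against 622, 587 and 557 CPM in SGCTRL (difference 0.26, adjusted p = 0.10), and without SG21 replicate 1 the difference passed at 0.38 (adjusted p = 0.0083). SREBF1, which encodes the relative that acts on fatty acid genes, read 23.9, 36.3 and 33.8 CPM against 43, 39.4 and 48.6 CPM (difference -0.48, adjusted p = 0.11; -0.32 and adjusted p = 0.39 without SG21 replicate 1). Against parental cells SREBF2 was 0.36 higher (adjusted p = 0.013), SREBF1 was at -0.77 (adjusted p = 0.0038) and LSS was 0.57 higher (adjusted p = 2.1e-05).

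Several genes for sterol uptake and transport fell in SG21. Of 8 measured members of the uptake and SREBP control list 4 fell and none rose, with a median of -0.42 beside 0.02 over all source genes, of which 11.2% fell, and 3 fell without SG21 replicate 1. Against parental cells 3 of the 8 were lower and 2 higher, beside 8.53% and 13.5% of all source genes. NPC1 (chr18:23506184-23586898) was at 63.3, 49.3 and 46.2 CPM in SG21 and at 78.9, 91.6 and 85.7 CPM in SGCTRL. The groups did not overlap and the level fell by 0.69 (standard error 0.16, adjusted p = 0.0023); in FBS the difference was -0.80 (adjusted p = 4.7e-04). LRP1, a large endocytic receptor of the lipoprotein receptor family, read 91.6, 94.3 and 109.5 CPM against 171, 130.3 and 127 CPM and fell by 0.53 (adjusted p = 0.0021; -0.38 and adjusted p = 0.076 without SGCTRL replicate 1). VLDLR, the receptor for triglyceride-rich lipoproteins, fell by 0.60 (standard error 0.17, adjusted p = 0.020), but 1 control library read 128 CPM where the others read 83.3 and 75.4 CPM, and the value was -0.52 without SG21 replicate 1 (adjusted p = 0.10) and -0.35 without that control, SGCTRL replicate 2 (adjusted p = 0.26). Against parental cells the differences were -0.51 for NPC1, -0.41 for LRP1 and -0.50 for VLDLR, which then did not pass (adjusted p = 0.059).

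Fatty acid and membrane lipid genes held a few single changes. FADS2, the delta-6 desaturase of polyunsaturated fatty acids, and DGAT2, which makes triacylglycerol, were the 2 of 7 measured members of the fatty acid list that passed. These 2 were higher, beside 11.4% of all source genes. FADS2 read 64.4, 56.6 and 58.9 CPM in SG21 against 32.6, 37.5 and 51.1 CPM in SGCTRL (rise 0.55, adjusted p = 0.027). The call was lost without SG21 replicate 1, SG21 replicate 3, SGCTRL replicate 1 or SGCTRL replicate 2, with values from 0.43 to 0.55 and adjusted p of 0.097, 0.063, 0.18 and 0.13. DGAT2 libraries overlapped between the lines (106, 170.0 and 123 CPM against 111, 95.2 and 96.2 CPM; adjusted p = 0.048). Leaving out SG21 replicate 2 took its log2 difference from 0.40 to 0.19 (adjusted p = 0.54), and the call was also lost without SG21 replicate 3, SGCTRL replicate 2 or SGCTRL replicate 3 (adjusted p = 0.051, 0.20 and 0.15). Both were close to 0 in FBS, at -0.04 and -0.02, and neither passed against parental cells (0.40 and 0.27, adjusted p = 0.14 and 0.23).

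Of 13 measured phospholipid and sphingolipid genes 1 rose and 3 fell, beside 11.4% and 11.2% of all source genes, with a median of -0.06. CHPT1, which makes phosphatidylcholine from CDP-choline, rose from 114, 106 and 103 CPM in SGCTRL to 147, 172 and 161 CPM in SG21 (log2 0.58, adjusted p = 0.0012). PCYT1A, which makes the CDP-choline that CHPT1 uses, fell by 0.51 (103, 97.7 and 112 CPM against 162, 146 and 137 CPM, adjusted p = 0.0023; -0.33 and 0.068 against parental cells). SGMS2, a sphingomyelin synthase of the plasma membrane, had the largest fall of the list, from 82.9, 90.6 and 81.2 CPM to 57, 41.9 and 46.6 CPM (it fell by 0.81, adjusted p = 4.7e-05). CERS2, the synthase of very long chain ceramides, fell by 0.34 (adjusted p = 0.0050; 0.050 without SGCTRL replicate 2). For each of these 4 genes the 2 lines did not overlap in LPDS.

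Of 8 measured lysosomal and autophagy genes 5 fell and none rose, with a median of -0.47 where 11.2% of all source genes fell, and 4 of 8 without SG21 replicate 1. WIPI1 (chr17:68420948-68457513), a protein that binds phosphoinositides on the forming autophagosome, showed the largest change, from 142, 134 and 115 CPM in SGCTRL to 46.7, 37.2 and 37.5 CPM in SG21. It fell by 1.69 (standard error 0.14, adjusted p = 2.7e-13), and the highest SG21 library is far below the lowest control. In FBS it differed by -1.03, and SG12 differed from SGCTRL by -0.59 in LPDS. CTSA, the lysosomal protective protein that holds beta-galactosidase and neuraminidase together, read 163, 172 and 149.9 CPM against 282, 310.1 and 259 CPM (it fell by 0.81, adjusted p = 2.1e-07). GABARAPL1, which couples cargo to the autophagosome membrane, read 16.9, 8.73 and 6.91 CPM against 27, 25 and 18.5 CPM (it fell by 1.11, adjusted p = 0.0063), near the background level, and did not pass without SG21 replicate 2 or 3 (adjusted p = 0.053 and 0.069). TPP1, the lysosomal tripeptidyl peptidase, read 124, 104 and 111 CPM against 170.2, 166 and 160.5 CPM (it fell by 0.55, adjusted p = 9.7e-04). HEXA, a subunit of beta-hexosaminidase, fell by 0.38 (adjusted p = 0.016) with libraries that overlapped, and did not pass without SG21 replicate 1, SGCTRL replicate 1 or SGCTRL replicate 2 (adjusted p = 0.12, 0.16 and 0.080) or against parental cells (-0.25, adjusted p = 0.14). SQSTM1, the autophagy receptor p62, was among the 3 that did not pass (0.22, adjusted p = 0.086).

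DNA replication genes rose together. Of 11 measured members 10 were higher in SG21, none was lower and GINS4 did not pass, with a median of 0.64 against 0.02 over all source genes, of which 11.4% were higher. Without SG21 replicate 1 the number was 7, with CDK2, PRIM1 and RFC5 no longer past the threshold, and with parental cells in place of SGCTRL it was 6, where 13.5% of all source genes were higher. The 4 that lost their call against parental cells were CCNE2 (0.45, adjusted p = 0.064), RRM1 (0.33, adjusted p = 0.093), GINS3 (0.32, adjusted p = 0.22) and PRIM1 (0.20, adjusted p = 0.45). Replication in human cells starts from origins loaded with the MCM helicase, which the CMG complex of MCM, CDC45 and GINS unwinds after cyclin E with CDK2 and other kinases fire it. Many of these genes are controlled at the start of S phase by E2F factors, which bind a short GC-rich site near the start of transcription.

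The letters TTTCCCGC, TTTCGCGC, TTTGCCGC and TTTGGCGC, a spelled-out form of the E2F site, were searched on both strands in RefSeq promoters (GRCh38.p14, 250 bases before to 50 bases after the start, 1 promoter for each gene symbol). Of the 7 measured replication genes that have a promoter there, 3 held a match, as did 120 of 2251 promoters of all source genes (5.33%) and 3.33% of all 27305 promoters. A match was present in 20 of 248 promoters of source genes that rose (8.06%) and in 7 of 253 of those that fell (2.77%). These shares describe letters in a window and say nothing on whether a factor binds. The matched stretches are shown for all 3 replication genes that held one. Each has 30 bases, 5′ to 3′ on the strand of the gene, with the motif in capitals.
MCM2: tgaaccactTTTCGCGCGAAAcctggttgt
GINS3: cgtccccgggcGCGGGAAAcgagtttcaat
LIG1: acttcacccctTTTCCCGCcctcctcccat
The MCM2 stretch (chr3:127598404-127598433, plus strand) holds 2 overlapping matches, 1 on each strand, that begin at base 3 after the start. In GINS3 (chr16:58392455-58392484, plus strand) the match begins 5 bases before the start, and in LIG1 (chr19:48170440-48170469, minus strand) it begins 114 bases before it.

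MCM2 (chr3:127598223-127622436), a subunit of the helicase, was at 894, 1177 and 1032 CPM in SG21 and at 566, 588 and 464 CPM in SGCTRL. All SG21 libraries were higher, by 0.94 on the log2 scale (standard error 0.10, adjusted p = 7.8e-10). In FBS the difference was 0.17 (adjusted p = 0.29). GINS3, a subunit of the complex that joins MCM at the fork, read 77.6, 62.5 and 57.1 CPM against 44.3, 43.6 and 37.1 CPM, a rise of 0.66 (adjusted p = 0.0038). LIG1, the ligase that seals Okazaki fragments, read 192, 229 and 189 CPM against 143, 136 and 113 CPM, a rise of 0.65 (adjusted p = 0.0013). In all 3 genes the lines did not overlap.

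Genes for nucleotides and for the start of S phase followed. RRM1, the large subunit of ribonucleotide reductase, rose by 0.66 (164, 166 and 130.3 CPM against 106, 101 and 86.4 CPM, adjusted p = 2.7e-04). CCNE2, a cyclin E, rose by 0.64 (119, 115 and 108 CPM against 70.6, 82.1 and 67.2 CPM, adjusted p = 0.0056). RAD54L, a motor protein of homologous recombination, rose by 0.60 (332, 368 and 328 CPM against 228, 240.5 and 212 CPM, adjusted p = 6.0e-05). The smaller rises were those of RFC5, a subunit of the clamp loader, PRIM1, the catalytic primase subunit, and CDK2, at 0.45, 0.43 and 0.34. Each of these 3 lost its call without SG21 replicate 1 (adjusted p = 0.11, 0.065 and 0.31) and also without SGCTRL replicate 3 (adjusted p = 0.17, 0.25 and 0.11). PRIM1 and RFC5 also lost it without SG21 replicate 2 (adjusted p = 0.072 and 0.10), PRIM1 and CDK2 without SGCTRL replicate 2 (adjusted p = 0.13 and 0.077), PRIM1 without SG21 replicate 3 (adjusted p = 0.17) and RFC5 without SGCTRL replicate 1 (adjusted p = 0.088). GINS4 read 418, 447 and 432 CPM against 451, 424 and 371 CPM.

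**Figure D2:**
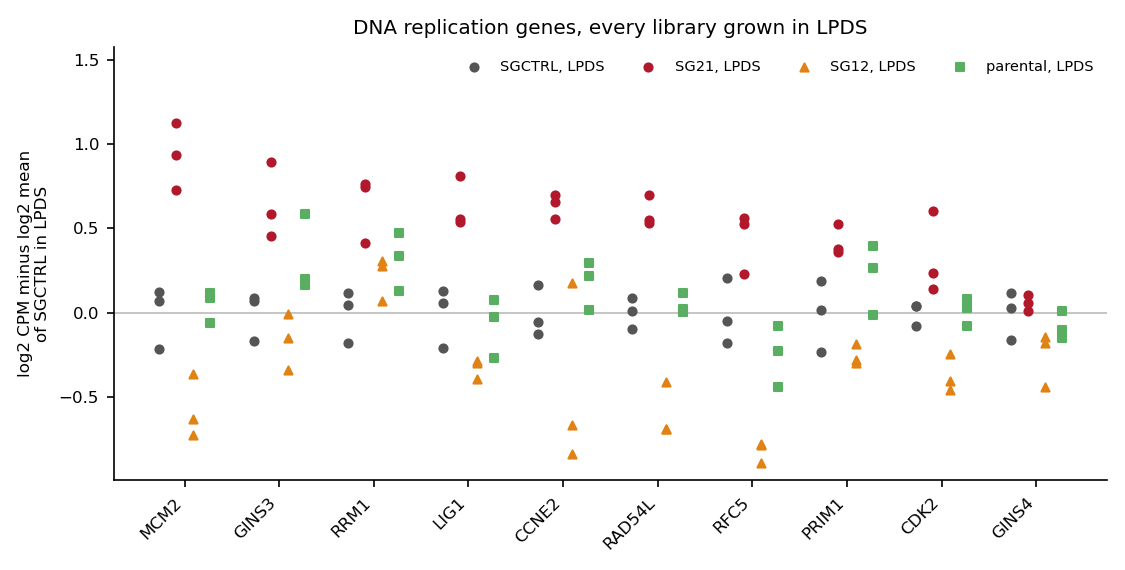
Log2 CPM of 10 of the 11 measured DNA replication genes in every library grown in LPDS, minus the log2 of the SGCTRL mean, for SGCTRL, SG21, SG12 and parental cells (3 points each). SG21 points lie above SGCTRL for all genes shown but GINS4, and SG12 points of MCM2, RAD54L, RFC5, CDK2 and LIG1 lie below.

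The second knockout line did not share the rise. SG21 was higher than SG12 in all 11 measured replication genes, against 21.8% of all source genes. All 3 SG12 libraries have the high ambiguous share, so a fit with a term for the low and high share was added. SG21 in LPDS is the only group with libraries of both kinds, so the term rests on its replicate 1 against replicates 2 and 3. With the term, SG21 replicate 1 alone is compared with SG12, and only effect sizes are given. For MCM2 the difference was 1.50 (standard error 0.10, adjusted p = 1.3e-16) and 1.29 with that term. Against SGCTRL, SG12 had 4 of the 11 lower, MCM2 at -0.56 among them, where 14.6% of all source genes were lower. None of 5 measured mitosis genes, PLK1, CCNA2, KIF20A, KIF4A and ANLN, passed in SG21, with a median of 0.06, and neither did any of 5 measured p53 targets (median 0.01). SLC19A1, the carrier that brings reduced folates into the cell, was not in the list and stood among the largest rises: 100.4, 137 and 135 CPM in SG21 against 65.9, 62 and 64.4 CPM in SGCTRL (0.95, adjusted p = 8.3e-06).

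HGC27 comes from a gastric carcinoma, and in both lines 6 of the 7 mesenchymal markers that could be read were above background, all but CDH2, and none of the epithelial ones was. Of 10 epithelial markers 4 could be read (CDH1, KRT7, KRT8 and KRT18), and none passed the background level: their summed level was 2.55 to 5.07 CPM in SG21 and 3.00 to 7.32 CPM in SGCTRL. No gastric marker of 9 could be read, LYZ was the only leukocyte marker that could, at 0 to 0.364 CPM in SG21 and 0.175 to 0.999 CPM in SGCTRL, and no endothelial marker could be read. The 7 mesenchymal markers with an entry summed to 11647 to 16751 CPM in SG21 and to 23027 to 29826 CPM in SGCTRL, nearly all of it VIM, and the 2 fibroblast markers, THY1 and ACTA2, summed to 346 to 409 CPM and 607 to 725 CPM. In bulk RNA, fewer cells of a type and less RNA per cell cannot be told apart.

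Of 9 measured members of the mesenchymal list 3 fell, beside 11.2% of all source genes, and none rose, the same 3 without SG21 replicate 1, with a median of -0.26. VIM, the intermediate filament of mesenchymal cells, read 11348, 16505 and 14619 CPM in SG21 against 26129, 29402 and 22625 CPM in SGCTRL and fell by 0.88 (standard error 0.15, adjusted p = 4.8e-04). CD44, the hyaluronan receptor, read 124, 100.2 and 106 CPM against 229, 216 and 199 CPM and fell by 0.96 (adjusted p = 1.6e-07). TWIST1, a transcription factor of the epithelial to mesenchymal transition, read 26.9, 17.7 and 26.2 CPM against 43.3, 44.6 and 53.9 CPM and fell by 1.02 (adjusted p = 6.0e-05; -1.60 against parental cells). No SG21 library reached a control for any of them. ZEB1, ZEB2, SPARC, AXL, ENG and TPM1 did not pass.

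For CD44 and TWIST1 the second knockout line differed from SGCTRL in the other direction, and for VIM its difference of 0.23 did not pass (adjusted p = 0.37). SG12 against SGCTRL also runs with the ambiguous share, high in all SG12 libraries and low in all SGCTRL libraries. CD44 was 0.74 and TWIST1 0.89 higher in SG12 than in SGCTRL in LPDS. SG21 lay below SG12 by -1.70 and -1.91 (adjusted p = 3.1e-15 and 7.4e-12). With the term for the ambiguous share, which leaves SG21 replicate 1 alone against SG12, the values were -1.53 and -1.71. In the guidance and growth factor list 3 of 8 measured members fell in SG21, beside 11.2% of all source genes, and none rose. NRP1, a co-receptor for semaphorins and VEGF, read 40.5, 47 and 46.6 CPM in SG21 against 78.6, 80 and 79.8 CPM in SGCTRL (it fell by 0.83, adjusted p = 5.2e-05), while SG12 was 1.08 higher than SGCTRL. NKD1, an inhibitor of Wnt signalling that Wnt itself induces, fell by 0.87 in SG21 (adjusted p = 6.7e-04) and was 1.02 higher in SG12, and it was at -1.38 against parental cells. EFNB2, the ligand ephrin-B2 (chr13:106489731-106535662), fell from 215, 213 and 210.5 CPM to 62.5, 75.4 and 76.4 CPM, and fell by 1.57 (standard error 0.12, adjusted p = 2.8e-14), and SG12 differed from SGCTRL by -0.17.

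Both THY1 and ACTA2, which fibroblasts also carry, were lower than in SGCTRL in both knockout lines. The SG12 values cannot be told apart from the ambiguous share. ACTA2 also lies in the window of chromosome 10 from 80 to 90 Mb that is described below. ACTA2, smooth muscle actin, read 54.1, 61.4 and 44.8 CPM in SG21 against 193, 187 and 167 CPM in SGCTRL and fell by 1.76 (standard error 0.14, adjusted p = 2.8e-14), and SG12 was at -1.62. THY1, a surface glycoprotein, read 292, 348 and 316 CPM against 529, 539 and 440.1 CPM and fell by 0.66 (adjusted p = 1.2e-05), and SG12 was at -1.07. FAP, the remaining measured member of that list, did not pass. GATA6, an endodermal transcription factor and the only measured gene of the gastric list, fell by 0.65 (42.7, 40.8 and 55.3 CPM against 71.9, 73.6 and 72.4 CPM, adjusted p = 8.0e-04).

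Immediate early genes, which growth factor signals switch on within minutes, were lower: 4 of 5 measured members, beside 11.2% of all source genes, with none higher and a median of -0.76, and the same number without SG21 replicate 1. NR4A1, a nuclear receptor, read 177, 183 and 180.5 CPM in SG21 against 301, 339.7 and 301 CPM in SGCTRL (it fell by 0.80, adjusted p = 8.8e-06). JUNB, a subunit of AP-1, read 404, 655 and 601 CPM against 957, 1096 and 762 CPM (it fell by 0.76, adjusted p = 0.0055). IER2 read 1745, 2108 and 2181 CPM against 3101, 3458 and 2935 CPM (it fell by 0.65, adjusted p = 0.0020). EGR3, a zinc finger factor, read 5.52, 1.97 and 8.73 CPM against 25, 19.5 and 22.6 CPM (it fell by 2.09, adjusted p = 5.7e-05) on few reads. No SG21 library reached a control in these 4 genes. The calls depend in part on the control used. Against parental cells, which have the high ambiguous share, 2 of the 5 passed, where 8.53% of all source genes were lower. IER2 at -0.07 and JUNB at -0.38 were not among the 2.

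Of 15 measured ribosomal protein genes 8 fell, beside 11.2% of all source genes, and none rose, with a median of -0.43, and the same number fell without SG21 replicate 1. RPS3A read 778, 819 and 714 CPM against 1282, 1280 and 1128 CPM (it fell by 0.68, adjusted p = 4.0e-07), and RPS28 read 42.3, 47.3 and 42.9 CPM against 74.3, 89.7 and 86.1 CPM (it fell by 0.91, adjusted p = 1.8e-05). RPL32 and RPL5 also fell, at -1.16 and -0.86, whereas RPL30, RPS23 and RPL15 differed by 0.05, 0.10 and 0.15 and did not pass. Ribosomal protein genes have many processed pseudogenes, and the way reads with more than 1 match were counted could split them, so their values are uncertain. Against parental cells 9 of the 15 were lower, beside 8.53% of all source genes.

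Hypoxia genes gave 3 falls and no rise among 9 measured, beside 11.2% of all source genes that fell. VEGFA, the angiogenic growth factor, read 565, 518 and 484 CPM in SG21 against 765, 721 and 692 CPM in SGCTRL (it fell by 0.47, adjusted p = 3.1e-04). LOXL2, which crosslinks collagen, fell by 0.63 (138, 192 and 178 CPM against 306, 246 and 238 CPM, adjusted p = 6.5e-05), and P4HA2, a collagen prolyl hydroxylase subunit, fell by 0.62 (adjusted p = 2.5e-04). Compared with parental cells VEGFA and P4HA2 were at -0.12 and -0.08 and did not pass, while LOXL2 was at -0.39 (adjusted p = 0.018).

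Mitochondrial and carbon metabolism genes moved in both directions. The counts in these lists lie near the 11.4% and 11.2% of all source genes that rose and fell. Of 12 measured respiratory chain genes 2 rose and 2 fell, with a median of 0.16. UQCRQ, a subunit of complex III, read 443, 349.9 and 256 CPM in SG21, highest in replicate 1, against 241, 246 and 220.3 CPM in SGCTRL (0.57, adjusted p = 6.3e-04), and it was 0.36 without SG21 replicate 1 and -0.07 against parental cells. NDUFA2, of complex I, rose by 0.41 with libraries that overlapped, and without SG21 replicate 1 its adjusted p was 0.075, and against parental cells it was at 0.14 (adjusted p = 0.45). NDUFB8, of complex I, fell by 0.76 (266, 189 and 148 CPM against 342, 358 and 320.2 CPM, adjusted p = 3.8e-05) and lies in the chromosome 10 stretch described below, and SDHC, of complex II, fell by 0.42 (-0.26 and adjusted p = 0.12 against parental cells, -0.33 and 0.053 with a term for the ambiguous share). PDHB, a subunit of pyruvate dehydrogenase, rose by 0.45 (adjusted p = 0.0023) as 1 of 12 measured genes of the tricarboxylic acid cycle and its feeders. ALDOA, the muscle-type aldolase, rose by 0.42 as 1 of 5 measured glycolysis genes. PRDX2, a peroxiredoxin, rose by 0.39 as 1 of 7 in the oxidative stress and iron list. PINK1, the kinase that marks damaged mitochondria, fell by 0.57 as 1 of 6 in the mitochondrial dynamics list (-0.31 against parental cells).

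Of 12 measured integrated stress response genes 1 rose, AIMP2 at 0.39, a scaffold of the tRNA synthetase complex, and 2 fell, VEGFA and VLDLR, which this list shares with those above. Over all source genes 11.4% rose and 11.2% fell. Of 6 measured endoplasmic reticulum chaperones HSP90B1 alone passed, at -0.28 with overlapping libraries, and not without SG21 replicate 2, SG21 replicate 3, SGCTRL replicate 1 or SGCTRL replicate 3 (adjusted p = 0.13, 0.26, 0.18 and 0.057), and it was at -0.43 without SG21 replicate 1. No member of the fatty acid oxidation, lipid droplet or LXR target lists passed among 3, 2 and 2 measured. Interferon genes had no measured member.

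The 12 largest falls and 12 largest rises were taken among 440 source genes that passed, lay above 48.7 CPM (the 99th percentile of the same background entries) and did not overlap between the lines, as 39.1% of all source genes did not. PROCR, the endothelial protein C receptor, had the largest fall with POLL: 30.9, 21.4 and 30.6 CPM against 119, 94.6 and 89.6 CPM, and it fell by 1.88 (standard error 0.17, adjusted p = 1.0e-11). POLL, DNA polymerase lambda of base excision and end-joining repair, read 55.2, 75.4 and 72 CPM against 263, 251 and 233 CPM (it fell by 1.88, standard error 0.13, adjusted p = 2.5e-16). LCORL, a transcription factor, read 33.5, 32.1 and 33.8 CPM against 108, 111 and 100.1 CPM (it fell by 1.68, adjusted p = 9.0e-13). The other falls not yet named were ACTR1A and DNMBP at -1.60 and -1.30, PXDC1 at -1.27, FBXL15 at -1.16, WASF3, an activator of actin branching, at -1.15, and GSN, the actin-severing gelsolin, at -1.15 (-0.66 against parental cells).

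CCDC3 (chr10:12896625-13099652), a secreted coiled-coil protein, had the largest rise: 201, 283 and 256 CPM in SG21 against 85.3, 82.1 and 59 CPM in SGCTRL (1.72, standard error 0.13, adjusted p = 2.4e-14), and SG12 was 1.20 higher than SGCTRL. NOP16, a factor of ribosome assembly, ranked next at 1.18, but it read 305 CPM in replicate 1 against 119.9 and 113 CPM in the other SG21 libraries, and without replicate 1 the value was 0.56 with an adjusted p of 0.13. Its call was also lost without each of SGCTRL replicates 1 to 3 (adjusted p = 0.066, 0.072 and 0.075), and against parental cells it was at 0.40 (adjusted p = 0.49). POLR1G, a subunit of RNA polymerase I, was also highest in replicate 1 (247, 171 and 163 CPM against 95.2, 88.2 and 96.9 CPM) and rose by 1.05 (adjusted p = 7.0e-08). CACNA1H, a T-type calcium channel, NFXL1, a zinc finger protein, C21orf91 and DDN rose by 1.02, 1.00, 0.98 and 0.96, and TBL3, of ribosome assembly, by 0.90 (0.56 against parental cells). STEAP3, a ferrireductase of the transferrin cycle, read 117, 129.8 and 135 CPM against 66.6, 69 and 68.8 CPM (0.90, adjusted p = 1.5e-05), while SG12 was at -0.97. SG21 and SG12 differed in STEAP3 by 1.87 (adjusted p = 1.7e-13), and in C21orf91, higher in both lines, by 0.07 (adjusted p = 0.81).

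**Figure D3:**
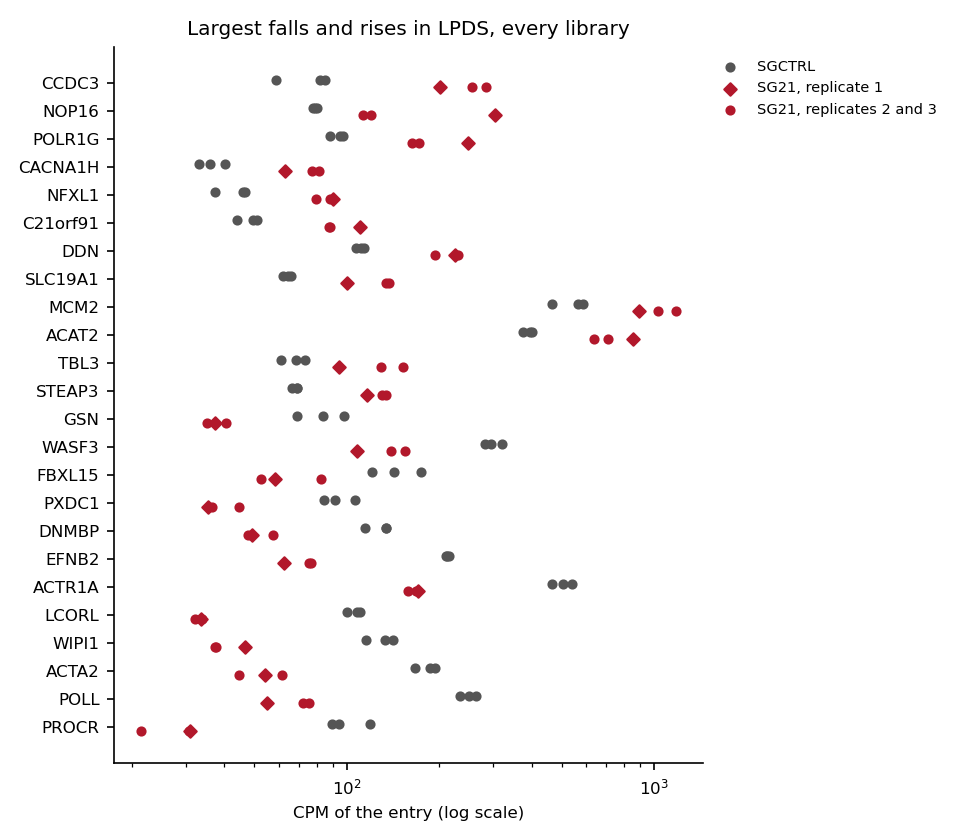
CPM on a log axis in each LPDS library for the 12 largest falls (lower rows) and the 12 largest rises (upper rows), SGCTRL in grey and SG21 in red, with SG21 replicate 1 as a diamond. Replicate 1 is far above replicates 2 and 3 for NOP16 and POLR1G. No SG21 point reaches an SGCTRL point in any row, which was a condition for a gene to be chosen.

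Several of the largest falls are neighbours. Source genes were grouped by start position into windows of 10 Mb, and in 8 of the 193 windows with at least 5 source genes at least 50% passed in 1 direction. Of these, 3 lie on chromosome 10. Between 100 and 110 Mb 11 of 15 source genes fell and none rose (median -1.09), between 70 and 80 Mb 10 of 18 fell (median -0.59), and between 80 and 90 Mb 3 of 6 did. On chromosome 4, 6 of 11 fell from 0 to 10 Mb (median -0.52) and 4 of 6 rose from 40 to 50 Mb (median 0.62). On chromosome 5, 4 of 6 rose from 40 to 50 Mb. The remaining windows were rises of 3 of 5 on chromosome 1 from 180 to 190 Mb (median 0.73) and of 3 of 5 on chromosome 4 from 140 to 150 Mb (median 0.34).

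At the distal end of the chromosome 10 group, all 12 source genes from DNMBP to TRIM8 (chr10:99875577-102660680) fell, a stretch picked after its values were seen, so the count is a description. Their log2 differences ran from -2.06 to -0.76 with a median of -1.13. The lowest, KCNIP2, read 3.68, 0.281 and 2.18 CPM in SG21 against 7.66, 6.41 and 10.1 CPM in SGCTRL, with SG21 below the background level. In order along the chromosome they were DNMBP, CHUK, CWF19L1, NDUFB8, MRPL43, LZTS2, POLL, KCNIP2, PSD, FBXL15, ACTR1A and TRIM8. They share no pathway: DNMBP organises actin at junctions, CHUK is a kinase of NF-kappaB signalling, MRPL43 is a mitochondrial ribosomal protein and ACTR1A forms the filament of dynactin. ACTR1A read 170.3, 168 and 158 CPM in SG21 against 504, 539.9 and 466 CPM in SGCTRL, and TRIM8, a ubiquitin ligase, read 19.1, 46.2 and 33.1 CPM against 72.9, 80.6 and 60.2 CPM. The lines did not overlap for either gene. Of the 12, the 2 called with least margin, CHUK and PSD, did not pass without SG21 replicate 1 (adjusted p = 0.094 and 0.055). CHUK also lost its call without SG21 replicate 2, SG21 replicate 3, SGCTRL replicate 1 or SGCTRL replicate 2 (adjusted p = 0.15, 0.084, 0.28 and 0.073) or against parental cells (-0.83, adjusted p = 0.065), and KCNIP2 without SG21 replicate 2 (-1.47, adjusted p = 0.072).

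The stretch was cut at TRIM8 after the values were seen, so its end is a description too. CNNM2, the next source gene after TRIM8, read 20.6, 11.5 and 10.9 CPM in SG21 against 16.7, 9.77 and 17.3 CPM (difference -0.04, adjusted p = 0.96). Among the 28 source genes from CNNM2 to the end of the chromosome 2 fell and 2 rose, with a median of 0.05. In FBS CNNM2 was at -0.66 (adjusted p = 0.12) and the 28 had a median of 0.16. In FBS, which shares no library with LPDS, all 12 were lower too, with a median of -1.52, and against parental cells in LPDS 11 of 12 were lower, with a median of -1.12. SG12 had 1 of the 12 lower than SGCTRL, ACTR1A, with a median of -0.10, and SG21 was below SG12 in all 12 (median -1.18). A second run, ANXA7 to AP3M1 (chr10:73375101-74151063), held 8 source genes that all fell, with a median of -0.71, among them VCL, the adhesion protein vinculin, at -1.49 and ANXA7 at -0.58. In FBS 7 of the 8 were lower, against parental cells 7 (not CAMK2G, at -0.28 with an adjusted p of 0.22), and against SG12 5 (median -0.45). VCL and AP3M1 are read through each other's entries, and USP54 lost its call without SG21 replicate 2 or SGCTRL replicate 1 (adjusted p = 0.072 and 0.074). DNA copy number was not measured, and its part in these falls was not tested.

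**Figure D4:**
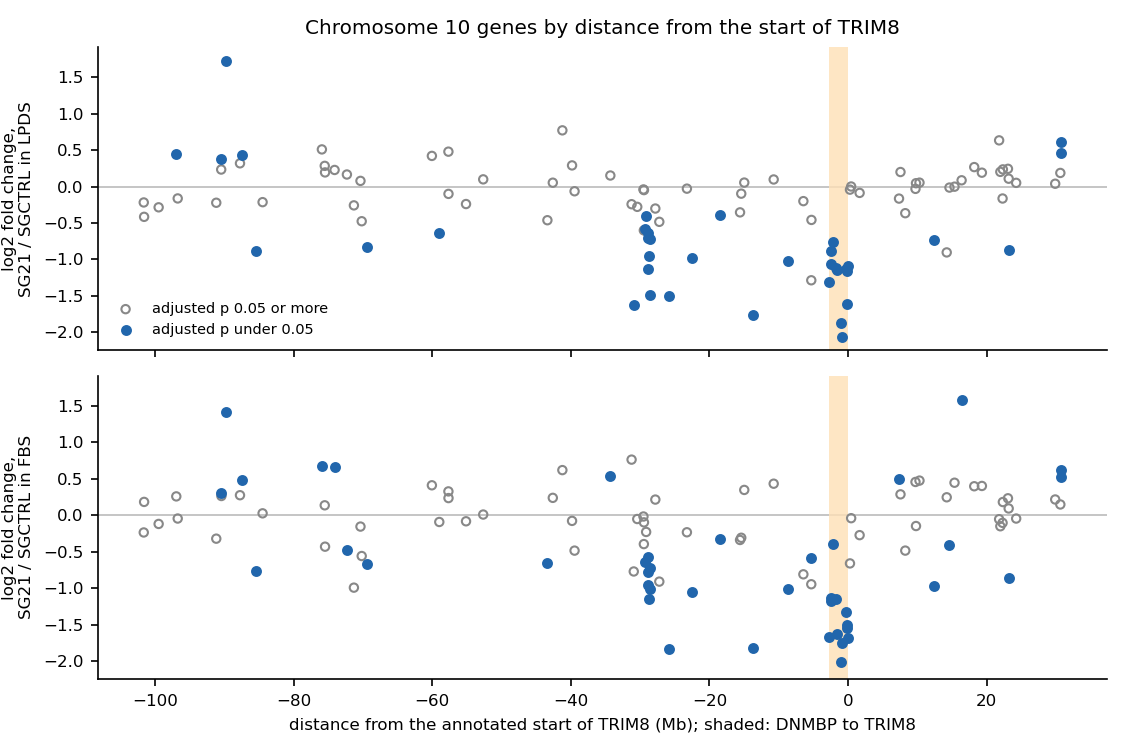
Log2 fold change between SG21 and SGCTRL for every chromosome 10 source gene against the distance of its annotated start from that of TRIM8, in LPDS (top) and FBS (bottom); filled points passed an adjusted p of 0.05 and the shaded band runs from DNMBP to TRIM8. All 12 genes in the band are below 0 in both media, and most of those to the right of it lie near 0.

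Among the 1400 entries that passed (10.9% of 12822), 218 had no gene exon on the other strand and an average log2 CPM of at least 2. For an entry to be among these 218, its libraries also had to lie apart between the lines. The 4 largest falls and 4 largest rises of the 218 are given here under their own name. They are read on the strand that the deposited counts hold. TNFAIP2 was at 0.368, 1.97 and 2.55 CPM in SG21 and at 52.9, 54 and 46.9 CPM in SGCTRL (log2 -4.92, standard error 0.39, adjusted p = 3.6e-14), with a mean of 0.328 CPM in SG12. The mean in parental cells was 13.4 CPM, so that SGCTRL was itself 1.94 higher (adjusted p = 6.6e-05) and SG21 was at -2.98 against them. The uncharacterised long noncoding entry ENSG00000233183 was at 14.3, 13.2 and 14.2 CPM in SG21 and at 0.333, 0.916 and 0.7 CPM in SGCTRL (4.31, adjusted p = 1.3e-07). PLXNA4, a semaphorin receptor, read 16.9, 13.8 and 17.8 CPM against 2.66, 0 and 1.92 CPM, and BAG1P1, a pseudogene of BAG1, read 20.2, 25.9 and 30.9 CPM against 4, 3.36 and 2.1 CPM; reads of BAG1P1 may belong to its parent gene. ATOSB rose by 3.21, and LINGO3, RNF141 and PCDHA8, whose exons are shared within the protocadherin cluster, were lower, at -3.0, -2.79 and -2.45. Against parental cells PCDHA8 was at -1.20 and did not pass (adjusted p = 0.17). Whether these are antisense transcripts or stray reads of the named gene cannot be told apart.

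The same 2 lines were compared in FBS to see how far the difference depends on the medium. In FBS 942 entries were higher and 858 lower (14.0%), and 390 source genes rose and 364 fell (14.2% and 13.2%). Of the source genes that rose in LPDS, 190 also rose in FBS, which is 60.5% of the LPDS list and 48.7% of the FBS list, and of those that fell 205 did, or 66.3% and 56.3%. The direction was opposite for 1 gene that passed in both. Across all 2755 source genes the log2 differences in the 2 media had a Pearson r of 0.75, given as a description, since genes share their libraries and lines. The FBS comparison runs with the ambiguous share, so the FBS libraries cannot estimate a term for it. A fit with that term, which takes its size from the SG21 libraries in LPDS, left 157 entries in FBS. That count does not show how much of the FBS difference goes with the share.

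**Figure D5:**
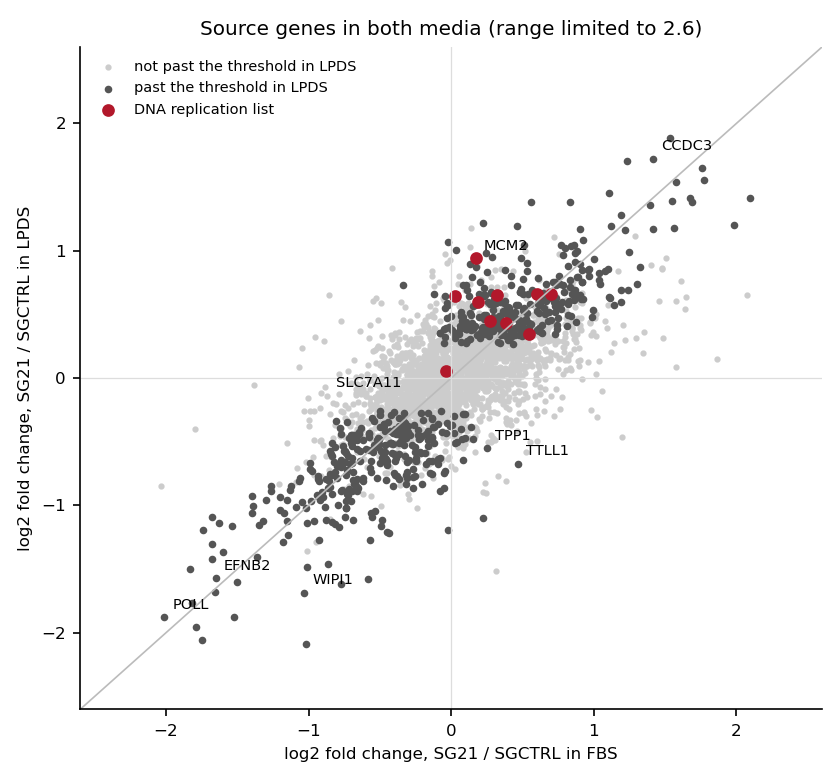
Log2 fold change between SG21 and SGCTRL for each source gene in LPDS (vertical axis) against FBS (horizontal axis), with the line of equality; 10 DNA replication genes are red, and 6 genes beyond 2.6 are not drawn. Most points follow the line, MCM2 lies above it at 0.94 and 0.17, and TPP1 and TTLL1 lie below it.

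The difference between media was itself significant for few genes. Across 12822 entries 6 passed in edgeR, or 0.0468%, 4 of them source genes, and DESeq2 gave 32. With the term for the ambiguous share, this test rests on SG21 replicate 1 as the only SG21 library in LPDS. No count with that term is given, and the difference between media cannot be fully told apart from the share. The number that passed was 256 without SG21 LPDS replicate 1 and 0 to 2 with any other library of the 4 groups left out. Without that replicate, SG21 has only low-share libraries in LPDS and only high-share ones in FBS. The 256 therefore cannot be told apart from the ambiguous share. MCM2 was 752 ± 30.7 CPM (SD, n = 3) in SG21 and 668 ± 18.6 CPM in SGCTRL in FBS, so that the line difference was 0.77 larger in LPDS (standard error 0.14, adjusted p = 0.021). Among the replication list 4 of 11 members rose in FBS, beside 14.2% of all source genes, GINS3, RRM1 and CDK2 among them. Only MCM2 of the list passed the test of the difference. SLC7A11, the cystine carrier, read 342, 348 and 370.0 CPM in SG21 and 389, 409.6 and 369 CPM in SGCTRL in LPDS (difference -0.14, adjusted p = 0.48), while in FBS it was lower in SG21 by -0.87, and the medium test gave 0.73 (adjusted p = 0.045). TPP1, lower in SG21 in LPDS, was at 0.25 in FBS (adjusted p = 0.18; medium test -0.80, adjusted p = 0.047). TTLL1, a subunit of the tubulin polyglutamylase, was at -0.67 in LPDS and 0.47 in FBS (medium test -1.14, adjusted p = 0.045).

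SG21 and SG12, which carry the same targeted gene, differed from each other in LPDS in 1247 entries higher and 1140 lower (18.6%). All SG12 libraries have the high ambiguous share. A term for it leaves SG21 replicate 1 alone against SG12, so no count with that term is given. In source genes 600 were higher in SG21 and 377 lower (21.8% and 13.7%). The comparisons of each line with SGCTRL share the SGCTRL libraries, and their values are set side by side. In SG12 213 source genes rose and 402 fell against SGCTRL (7.73% and 14.6%), a comparison that cannot be told apart from the ambiguous share. ACAT2 was 0.91 in SG21 and -0.04 in SG12, NPC1 was -0.69 and 0.03, and HMGCS1 was -0.48 and -0.52. In the direct test SG21 exceeded SG12 in ACAT2 by 0.95 (adjusted p = 2.3e-10) and lay below it in NPC1 by -0.73 (adjusted p = 8.5e-04). HMGCS1 differed by 0.05 (standard error 0.10, adjusted p = 0.81). With the term for the ambiguous share, which leaves SG21 replicate 1 alone, NPC1 was at -0.47.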

How the data were processed

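The authors deposited whole-number read counts per gene entry for each library, not normalized; per the submitters' processing notes the tools were bcl2fastq and STAR on hg38, and the counting program is not given in the sources used here. Libraries were made from 100 ng of total RNA with a stranded kit after ribosomal RNA removal, per the labels' protocols. The 5 summary rows (no feature, ambiguous and the like) were left out. The members and gene lists were chosen with earlier results of these data known. Counts of all 24 libraries were fitted in edgeR 4.0.16 (R 4.3.3) with its expression filter, TMM scaling and the quasi-likelihood test with a robust prior (an option taken from earlier processing of these data), 1 coefficient for each of the 8 groups, and Benjamini-Hochberg adjustment over all 12822 entries; DESeq2 1.42.0 was an alternative. The script was tested on simulated data, with 82 calls in all. There, 2-fold changes were recovered in 5 of 105 entries from 2 to 10 CPM, 29 of 50 from 10 to 50 CPM and 44 of 45 above. An entry with few reads that did not pass can therefore still differ. Source genes came from GENCODE release 29: an opposite-strand exon overlap of at least 50 bases that made up at least 80% of the opposite overlap. Entries of which over 50% could come from the named gene's own strand were set aside. Named genes are those fixed by name, up to 4 passing members of each list, the 12 largest rises and falls, and 4 rises and 4 falls under their own name; members of the 10 lists described in detail and the chromosome 10 runs were added after their values were seen. Some genes that the rule names are not reported here. Intervals that need a depth were not given; the 6 libraries held between 2554457 and 5543678 reads on entries, 94.4% to 94.6% of unique reads having no entry. Replicate numbers do not pair the samples: same-numbered deviations of SG21 and SGCTRL correlated at -0.07, 0.05 and 0.01.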

Additional observations from a re-analysis of the deposited data

Results flagged for a closer look

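Each result here was singled out because the difference between SG21 and SGCTRL was not the same in LPDS as in FBS by a test of that difference (edgeR quasi-likelihood, adjusted over 12822 entries). The values are the log2 difference in LPDS minus that in FBS: 0.77 for MCM2, 0.73 for SLC7A11, -0.80 for TPP1, -1.14 for TTLL1, -2.01 for the entry RHBDL1 and -0.89 for the entry ENSG00000288612. The last 2 entries name no source gene. RHBDL1 read 6.99, 9.85 and 6.91 CPM in SG21 and 29, 21.4 and 24.7 CPM in SGCTRL in LPDS, against means of 17.9 and 13.8 CPM in FBS. ENSG00000288612 read 113, 88.7 and 74.2 CPM in SG21 and 135, 136 and 140.0 CPM in SGCTRL in LPDS, and means of 131 and 105 CPM in FBS. Without SG21 replicate 1, SG21 has only low-share libraries in LPDS and only high-share ones in FBS. The test then runs fully with the ambiguous share. In that fit all 6 passed, with adjusted p from 7.8e-05 to 0.0061. With a term for the ambiguous share the test rests on SG21 replicate 1 as the only SG21 library in LPDS, so no p-value is given. The values were then 0.56 for MCM2, 0.68 for SLC7A11, -0.67 for TPP1, -1.20 for TTLL1, -2.20 for RHBDL1 and -0.60 for ENSG00000288612. With the prior spread estimated without the robust option, the adjusted p of the 6 ran from 0.053 to 0.14. With parental cells as the control MCM2 (0.66) and RHBDL1 (-2.57) passed and the other 4 did not. Leaving out any other library left 0 to 2 entries past the threshold. Groups of 3 libraries were not searched for single outlying libraries.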

How the results depend on the processing

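In LPDS the number of entries past the threshold ran from 1180 to 1542 under other tools, scalings, filters and controls and from 1016 to 1239 with 1 library left out, against 1400, and was 907 with SG21 replicate 1 as the only SG21 library. A filter of 1 CPM in 3 libraries, planned as stricter, kept more entries (20228) than the one used. For source genes the range was 428 to 680 against 623. In FBS parental cells as the control gave 3102 entries. The term for the ambiguous share, which the FBS libraries cannot estimate, gave 157. With the share of reads on entries that face no gene on the opposite strand as a covariate, SG21 and SG12 differed in 1249 entries. With the term for the ambiguous share they differed in 1094, against 2387. The medium difference passed for 32 entries in DESeq2, 11 with all unique reads as library size and 11 with no filter. It passed for 1 with the share on entries that face no gene as a covariate, 92 with parental cells and 17 with the spread of the compared groups alone. The count was 0 with the non-robust prior (1069 at an unadjusted p under 0.05). With 1 library left out it was 0 to 2 (857 to 1069 at an unadjusted p under 0.05) except for 256 without SG21 LPDS replicate 1. With the term for the ambiguous share the medium test rests on SG21 replicate 1 alone in LPDS, so no count is given. Against parental cells FDFT1 (0.14), HMGCS1 (0.27), UQCRQ (-0.072) and SLC7A11 (0.10) changed sign; with SG21 replicate 1 alone IDI1 (0.20), LSS (-0.087), SREBF2 (-0.020) and CNNM2 (0.49) did, and CNNM2 ran from -0.39 to 0.13 with 1 library left out. The cause of these shifts was not tested. Of 103 named results past the threshold 54 stayed past it in every alternative and 49 did not in at least 1. Replicate numbers were shared between groups without pairing the samples; with the replicate block 1472 entries passed in LPDS, 1893 in FBS, 7 for the medium difference and 2448 between SG21 and SG12. Depth limits EGR3, GABARAPL1, KCNIP2, PSD, CHUK, VCL and most entries read under their own name, which rest on few reads.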
